A study of Homo sapiens with 6 samples.

Results

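The genes described here are 9 genes of the NRF2 antioxidant response and of glutathione metabolism: the regulator NFE2L2, its inhibitor KEAP1, and the antioxidant genes GCLC, GCLM, GSR, GPX2, TXNRD1, NQO1 and SRXN1. They were taken by name, with no threshold on their values, from the 29908 genes of the deposited table. Of the 9, 8 passed the filter of a mean of at least 0.5 FPKM (reads scaled by the exon length of a gene and the depth of its library), which left 14221 genes to test. SRXN1 was the member under the filter. The cells were Hep3B, an established human hepatocellular carcinoma line. The 3 Hep3B-Con samples received a control lentivirus, named shControl in the sample titles and an empty vector in the series' design text. The 3 Hep3B-KD samples received a lentivirus with a short hairpin RNA aimed at DAGLA, whose product, diacylglycerol lipase alpha, makes the endocannabinoid 2-arachidonoylglycerol. Both viruses were used at a multiplicity of infection of 5 and both groups were kept under puromycin, so that each group is a selected, stably transduced population and the knockdown rests on a single hairpin. The design text calls the 3 samples of a group biological replicates, but nothing says that they were transduced separately, so p-values measure only the spread between these samples.

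NRF2, the protein of NFE2L2, is the transcription factor that switches on defence against oxidants and electrophiles. In unstressed cells the cysteine-rich protein KEAP1 binds NRF2 and hands it to a CUL3 ubiquitin ligase for degradation, and oxidants or electrophiles that modify KEAP1 let NRF2 escape. NRF2 then pairs with small MAF proteins on antioxidant response elements in DNA. Its targets make and recycle glutathione, reduce thioredoxin and quinones, and supply NADPH. In the liver these genes serve detoxification, and the pathway is often activated in hepatocellular carcinoma. Since NRF2 is controlled largely through the stability of the protein, its mRNA level is not a measure of its activity.

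The core of an antioxidant response element was searched as TGACNNNGC on both strands of the promoters, from 250 bases before to 50 bases after the gene start in RefSeq on GRCh38.p14. Promoters were found in that table for 8 of the 9 members, and GSR was the member without an entry. Only the first entry of each gene was used, so other start sites of a gene were not searched. The motif was found in GCLM, GPX2 and TXNRD1. The matches are printed 5′ to 3′ in the direction of the gene with 15 bases on either side and the match in capitals, because these are the 3 members whose promoter window holds the sequence that NRF2 is known to bind.
GCLM, chr1:93909381-93909680, minus strand: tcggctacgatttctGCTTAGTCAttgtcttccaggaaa
GPX2, chr14:64942696-64942995, minus strand: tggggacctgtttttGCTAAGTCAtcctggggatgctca
TXNRD1, chr12:104215529-104215828, plus strand: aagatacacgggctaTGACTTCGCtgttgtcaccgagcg
With the first transcribed base counted as 0, the matches ran from -34 to -26 in GCLM, from -122 to -114 in GPX2 and from -99 to -91 in TXNRD1. Read on the motif's own strand, the GCLM match is TGACTAAGC and the GPX2 match is TGACTTAGC. TXNRD1 held another match, TGACGGAGC, from -8 to 0. The motif shares its first letters with the AP-1 site TGACTCA, which none of these 4 matches contains. No match lay in the windows of NFE2L2, KEAP1, NQO1, GCLC or SRXN1, which says only that these letters are absent from these windows. For NFE2L2, KEAP1, NQO1 and GCLC the window lay wholly inside the gene as positioned below, downstream of its outermost start. The NQO1 window reached up to base 69726810, while the gene, on the minus strand, starts at base 69726951. The bases before the outermost starts of NFE2L2, KEAP1, NQO1 and GCLC were not searched. Of 27305 RefSeq promoters of the same length, 13.6% held the motif, and 15.4% of the 9354 that belong to genes tested here.

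The 3′ UTRs of the members were also searched for matches to the hairpin. The guide strand of a hairpin can pair through its seed (bases 2 to 8) with the 3′ UTR of other mRNAs. The target in DAGLA is printed with the guide strand, taken as its reverse complement, whose seed is in capitals.
Target: gcgacaacaaggccttcaa
Guide: tTGAAGGCcttgttgtcgc
The whole target occurred in GENCODE release 29 transcripts of DAGLA only. The 7-base match of the seed, GCCTTCA, occurred in the longest annotated 3′ UTR of 2 members, in GPX2 at bases 67 to 73 and 220 to 226 of 335 and in NQO1 at bases 1495 to 1501 of 1575. The sites are shown with the match in capitals.
GPX2, first site: ggatgcagcatGCCTTCAggagacactgc
GPX2, second site: gtaagctctggGCCTTCAcagaatgatgg
NQO1: aatattttgttGCCTTCAtcttcactgca
The 3′ UTRs of the other 7 members held no match. Among 11188 tested genes with a 3′ UTR, DAGLA left out, 1627 (14.5%) held the match. Their median log2 fold change was -0.04, against 0.11 for those without it. These medians take no account of the length of the 3′ UTR, and an effect of the seed was not tested.

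Of the 8 members tested, 6 fell in Hep3B-KD cells, 1 rose and 1 did not pass (limma on log2(FPKM + 0.1), adjusted p under 0.05 by Benjamini-Hochberg across the 14221 genes). GPX2 fell most, followed by NQO1, TXNRD1, GSR, GCLM and NFE2L2, while GCLC rose and KEAP1 did not pass. In the same fit 59.9% of all genes tested passed, 23.8% lower and 36.1% higher in Hep3B-KD. With libraries centred on the median log2 ratio these shares were 30.3% and 28.6%. The median log2 fold change was -0.58 over the 8 members and 0.11 over all genes tested. GPX2 was the 1 member that also reached a 2-fold change, as 8.83% of all genes tested did. The 6 that fell and GCLC had no overlap between the groups, a separation that 26.3% of all genes showed downwards and 40.7% upwards. Every log2 fold change below is Hep3B-KD against Hep3B-Con. RNA came from whole cultures, so fewer cells with a transcript and less of it per cell cannot be told apart.

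**Figure D1:**
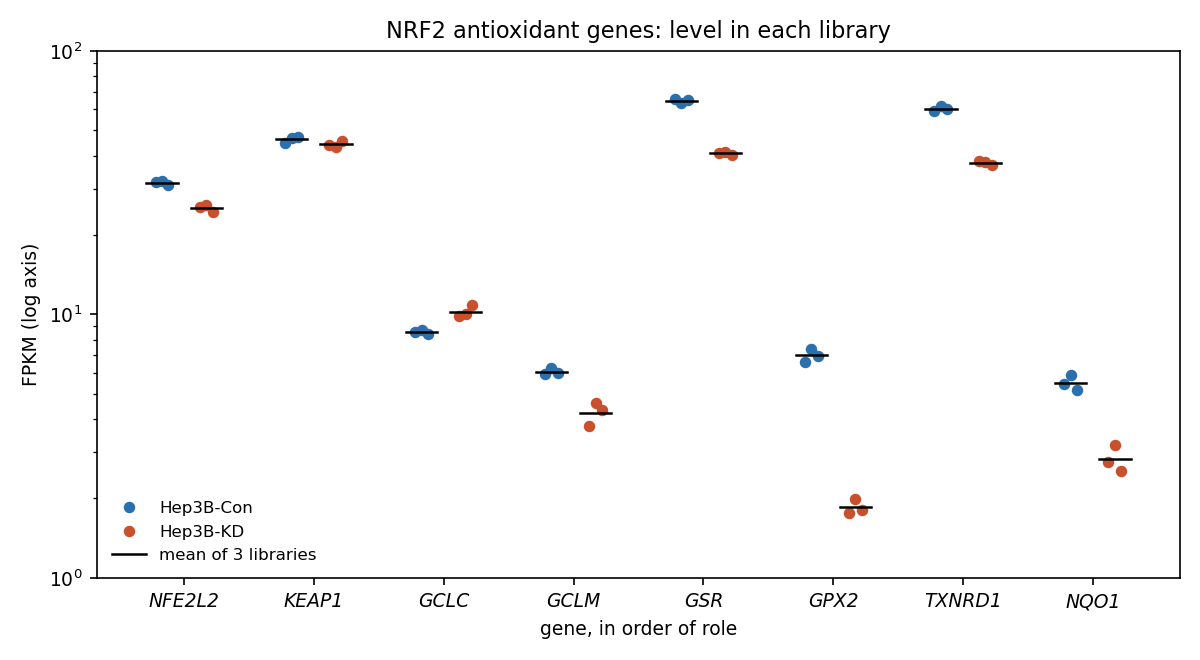
FPKM on a log axis for the 8 members tested, with 1 point per library, Hep3B-Con in blue, Hep3B-KD in red, and a black line at the mean of 3 libraries. The groups of KEAP1 overlap, the Hep3B-KD points of GCLC lie above those of Hep3B-Con, and those of the other 6 lie below, with the widest gap in GPX2.

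The regulator itself was lower. Gene positions are those of GENCODE release 29 on GRCh38. NFE2L2 (ENSG00000116044, chr2:177227595-177392697, minus strand) was at 31.9, 32.1 and 31.0 FPKM in Hep3B-Con and at 25.6, 26.0 and 24.4 FPKM in Hep3B-KD. All Hep3B-KD libraries lay below all Hep3B-Con libraries. The log2 fold change was -0.32 ± 0.0315 (SE, n = 3 per group, limma, Benjamini-Hochberg adjusted p = 0.000164). The call rested on 2425 to 3349 reads per library, and NFE2L2 shares 1054 of its 5979 exon bases with the same-strand gene AC019080.1, to which 15 to 31 reads were assigned.

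KEAP1 (ENSG00000079999, chr19:10486120-10503741, minus strand), the sensor that holds NRF2 back, was at 44.8, 46.7 and 47.0 FPKM in Hep3B-Con and at 44.0, 43.0 and 45.4 FPKM in Hep3B-KD. The groups overlapped. The log2 fold change of -0.07 ± 0.0301 (SE, n = 3 per group) did not pass (limma, Benjamini-Hochberg adjusted p = 0.103), and its sign depended on scaling: it was -0.17 and passed when libraries were centred on the median log2 ratio (adjusted p = 0.00302), and 0.05 without passing under quantile normalization. The ratio of NFE2L2 to KEAP1, in which library scaling cancels, was 0.711, 0.686 and 0.658 in Hep3B-Con and 0.582, 0.605 and 0.539 in Hep3B-KD. The groups did not overlap, and the two-sided exact permutation test gave p = 0.1, the smallest that 3 against 3 libraries allow.

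The genes of the glutathione-making enzyme went in opposite directions. Glutamate-cysteine ligase catalyses the rate-limiting step of glutathione synthesis. GCLC encodes its catalytic subunit and GCLM the modifier subunit that raises its affinity for glutamate and eases feedback inhibition. GCLC (ENSG00000001084, chr6:53497341-53616970, minus strand) was at 8.55, 8.74 and 8.44 FPKM in Hep3B-Con and at 9.82, 10.0 and 10.9 FPKM in Hep3B-KD. All 3 Hep3B-KD libraries were higher, with a log2 fold change of 0.25 ± 0.0464 (SE, n = 3 per group, limma, Benjamini-Hochberg adjusted p = 0.00316). Relative to the median of all genes the rise of GCLC was 0.14.

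GCLM (ENSG00000023909, chr1:93885205-93909456, minus strand) was at 5.94, 6.25 and 5.96 FPKM in Hep3B-Con and at 3.77, 4.60 and 4.35 FPKM in Hep3B-KD. The groups were apart, with the lowest Hep3B-KD level in replicate 1, and the log2 fold change was -0.51 ± 0.0778 (SE, n = 3 per group, limma, Benjamini-Hochberg adjusted p = 0.00133). The ratio of GCLC to GCLM was 1.44, 1.40 and 1.42 in Hep3B-Con. It was 2.61, 2.19 and 2.50 in Hep3B-KD, a mean of 2.43 ± 0.218 against 1.42 ± 0.0207 (SD, n = 3). Every Hep3B-KD ratio lay above every Hep3B-Con ratio (two-sided exact permutation p = 0.1, the smallest possible).

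**Figure D2:**
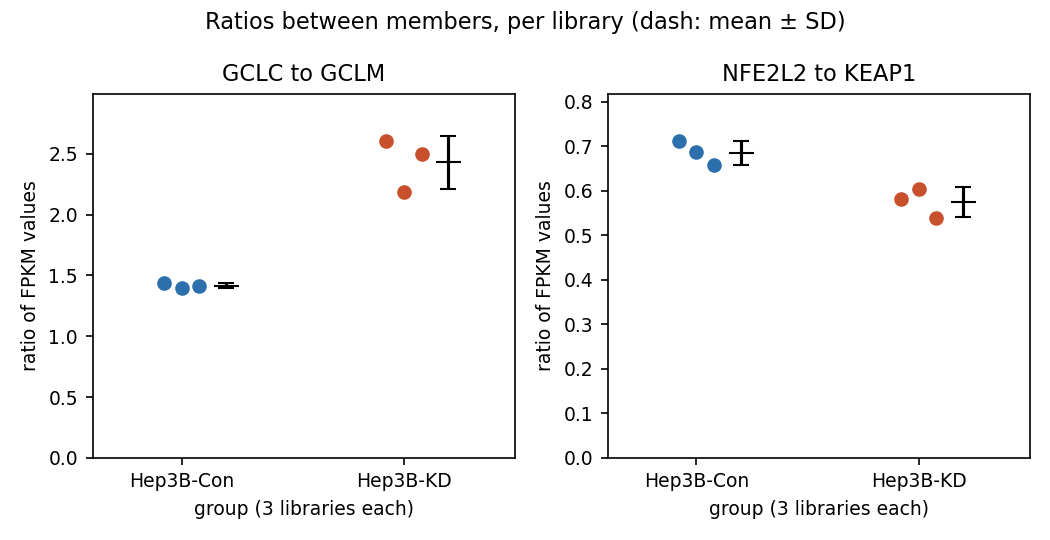
Ratio of the FPKM values of 2 genes in each library (points, from 0 on a linear axis) with the mean ± SD of 3 libraries beside them. GCLC to GCLM rose from a mean of 1.42 in Hep3B-Con to 2.43 in Hep3B-KD, and NFE2L2 to KEAP1 went from 0.685 to 0.575, without overlap in either panel.

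GSR, glutathione reductase, returns oxidised glutathione to its reduced form with NADPH. It was the most abundant member in Hep3B-Con. GSR (ENSG00000104687, chr8:30678061-30727999, minus strand) was at 65.8, 63.3 and 64.9 FPKM in Hep3B-Con and at 41.0, 41.4 and 40.1 FPKM in Hep3B-KD. The replicates of each group lay close together and the groups far apart. The log2 fold change was -0.66 ± 0.0239 (SE, n = 3 per group, limma, Benjamini-Hochberg adjusted p = 2.41e-06).

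GPX2 encodes a selenium-containing glutathione peroxidase, known mainly from the gut epithelium, that spends glutathione to reduce hydrogen peroxide and lipid hydroperoxides. GPX2 (ENSG00000176153, chr14:64939152-64942905, minus strand) was at 6.61, 7.41 and 6.93 FPKM in Hep3B-Con and at 1.77, 1.99 and 1.81 FPKM in Hep3B-KD. This was the largest change among the members tested, with means 3.76-fold lower in Hep3B-KD and a log2 fold change of -1.86 ± 0.0710 (SE, n = 3 per group, limma, Benjamini-Hochberg adjusted p = 2.96e-06). It rested on 173 to 193 reads per Hep3B-Con library and 42 to 48 per Hep3B-KD library. GPX2 is also the member with 2 matches to the hairpin's seed in a short 3′ UTR, and their part in its fall was not tested.

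TXNRD1, the cytosolic thioredoxin reductase, is a selenoprotein that keeps thioredoxin reduced. TXNRD1 (ENSG00000198431, chr12:104215779-104350305, plus strand) was at 59.3, 61.5 and 59.9 FPKM in Hep3B-Con and at 38.2, 37.9 and 36.7 FPKM in Hep3B-KD. The groups were far apart, and the log2 fold change of -0.68, beside -0.66 for GSR, had an SE of 0.0250 (n = 3 per group, limma, Benjamini-Hochberg adjusted p = 2.55e-06). The ratio of TXNRD1 to TXN, the gene of its substrate thioredoxin, averaged 0.609 ± 0.0132 over the Hep3B-Con libraries and 0.50 ± 0.0192 over the Hep3B-KD libraries (SD, n = 3), without overlap (two-sided exact permutation p = 0.1, the smallest possible).

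NQO1 encodes the quinone reductase that is widely read as a marker of NRF2 activity. NQO1 (ENSG00000181019, chr16:69706996-69726951, minus strand) was at 5.46, 5.89 and 5.17 FPKM in Hep3B-Con and at 2.75, 3.20 and 2.54 FPKM in Hep3B-KD. Its lowest Hep3B-Con library was well above its highest Hep3B-KD library. The log2 fold change was -0.94 ± 0.0953 (SE, n = 3 per group, limma, Benjamini-Hochberg adjusted p = 0.000183), just short of the 2-fold limit. It passed that limit with libraries centred on the median log2 ratio, under quantile normalization and without Hep3B-KD replicate 2. NQO1 holds 1 seed match of the hairpin in its 3′ UTR, whose part in the fall was not tested, and 575 of its 3254 exon bases lie opposite the antisense gene AC092115.2.

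SRXN1 encodes sulfiredoxin, which repairs over-oxidised peroxiredoxins. SRXN1 (ENSG00000271303, chr20:646615-653370, minus strand) had 1 read in Hep3B-Con replicate 1, 1 read in Hep3B-KD replicate 2 and 0 in the other 4 libraries, so no fold is given. In GENCODE release 29, 2292 of its 2698 exon bases are shared with the same-strand protein-coding gene AL121758.1, which had 0 to 3 reads per library. How reads in shared exons were assigned is not given in the sources used here, so the level of SRXN1 is uncertain.

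**Figure D3:**
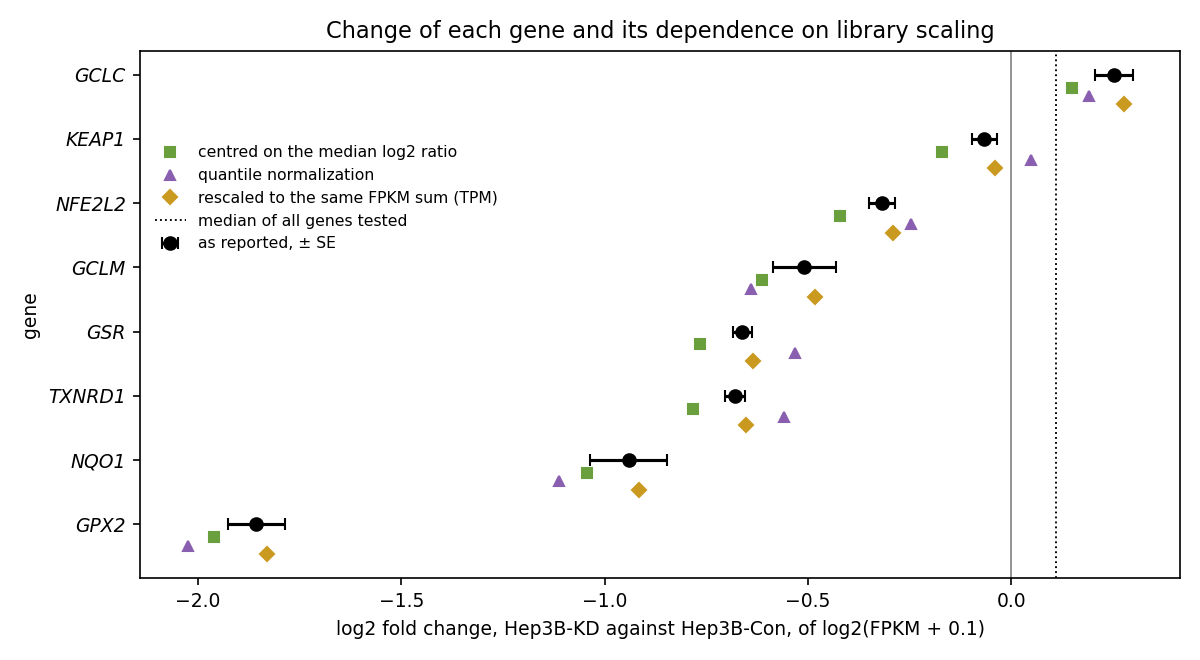
Log2 fold change of each tested member, Hep3B-KD against Hep3B-Con, as reported (black, ± SE) and under 3 other ways of scaling the libraries (coloured marks drawn below it). The dotted line is the median of all genes tested, 0.11. GPX2, NQO1, TXNRD1, GSR, GCLM and NFE2L2 stay left of 0 and GCLC right of 0 under each scaling, while KEAP1 lies on both sides.

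On the FPKM scale, which is per length, the levels of the members were ranked within each group. In Hep3B-Con the order was GSR, TXNRD1, KEAP1, NFE2L2, GCLC, GPX2, GCLM, NQO1 and SRXN1. In Hep3B-KD KEAP1 moved to the top and GPX2 below NQO1, which gave the order KEAP1, GSR, TXNRD1, NFE2L2, GCLC, GCLM, NQO1, GPX2 and SRXN1. No neighbours overlapped in their ranges over 3 libraries within either group. GSR, TXNRD1, KEAP1 and NFE2L2 lay between the 88.8 and 94.8 percentiles of mean FPKM among the genes tested, GCLC at the 66.3 percentile, and NQO1, GPX2 and GCLM between the 45.8 and 51.3 percentiles.

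The genes that act on NRF2 changed in both directions. The shares of all genes tested that fell and rose, 23.8% and 36.1%, stand beside the counts of each list below. Of 12 partners, repressors and degradation factors, all tested, 6 fell, 2 rose and 4 did not pass, with a median log2 fold change of -0.07. Those that fell numbered 5 in several alternatives, among them no filter on mean FPKM and a replicate block. They numbered 7 with libraries centred on the median log2 ratio. The small MAF genes, whose proteins are the DNA-binding partners of NRF2, all fell: MAFF from 5.11 ± 0.223 to 2.10 ± 0.0316 FPKM (SD, n = 3, log2 fold change -1.25), MAFK by 0.57 and MAFG by 0.25 on the log2 scale. BACH2, a repressor that competes for the same DNA elements, fell with a log2 fold change of -0.65. Among the ligase genes that mark NRF2 for degradation, FBXW11 fell from 37.5 ± 1.17 to 25.0 ± 1.16 FPKM (SD, n = 3, log2 fold change -0.58), and its paralog BTRC rose from 3.65 ± 0.144 to 5.56 ± 0.0379 FPKM (SD, n = 3, log2 fold change 0.60). CUL3, the scaffold of the KEAP1 ligase, rose with a log2 fold change of 0.18, a call that was lost under centring on the median log2 ratio and under quantile normalization. NFE2L1, the gene of the related factor NRF1, did not pass, with a log2 fold change of 0.03 that turned to -0.07 when centred on the median log2 ratio.

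Genes known as NRF2 targets other than the members changed in both directions too. Of 19, 17 were tested, 10 fell, 4 rose and 3 did not pass, and the median log2 fold change was -0.24. AKR1B10, an aldo-keto reductase often high in liver cancer, went from 6.93 ± 0.360 to 1.72 ± 0.495 FPKM (SD, n = 3), a log2 fold change of -1.99 that rests on 35 to 65 reads per Hep3B-KD library. HMOX1, heme oxygenase, fell from 14.7 ± 0.799 to 8.70 ± 1.18 FPKM (SD, n = 3, log2 fold change -0.76). TKT, transketolase, fell with a log2 fold change of -0.68, and PGD, an NADPH-producing dehydrogenase, with -0.17, which was -0.02 and did not pass under quantile normalization. Smaller or similar falls were seen for the exporter ABCC3 (-0.70), the carbonyl reductase CBR1 (-0.56), the ferritin light chain FTL (-0.27), UGDH (-0.25) and ME1 (-0.24).

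The 4 targets that rose were EPHX1, the microsomal epoxide hydrolase, IDH1, the cytosolic NADP-linked isocitrate dehydrogenase, the canalicular exporter ABCC2, and PIR. EPHX1 went from 29.8 ± 1.24 to 54.2 ± 1.94 FPKM (SD, n = 3, log2 fold change 0.86), and IDH1 from 71.8 ± 2.06 to 97.3 ± 1.67 FPKM (SD, n = 3, log2 fold change 0.44). ABCC2 had a log2 fold change of 0.36 and PIR of 0.34.

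Within glutathione metabolism the list was split. Of 25 genes, 22 were tested, 9 fell, 8 rose and 5 did not pass, and the median log2 fold change was 0.09, near that of all genes. The falls were led by CHAC1 (from 41.3 ± 1.73 to 16.9 ± 0.898 FPKM, SD, n = 3; log2 fold change -1.28) and CHAC2 (-1.13), which break glutathione down. GLRX2, the mitochondrial glutaredoxin, fell with a log2 fold change of -0.75, GPX7 with -0.63, GLO1, which clears methylglyoxal, with -0.42, and GPX1, the main cytosolic glutathione peroxidase, with -0.29. GSS, whose enzyme completes glutathione synthesis, did not pass, at -0.04.

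Glutathione transferases join glutathione to electrophiles. Of the 11 in the list, grouped after their values were seen, 9 were tested, 6 rose, 2 did not pass and 1, MGST1, fell (-0.12), a call that 9 of 16 alternatives lost, among them those without Hep3B-Con replicate 2 (-0.08) and without Hep3B-KD replicate 1 (-0.13), 2 (-0.12) or 3 (-0.12). GSTA4, which acts on the lipid peroxidation product 4-hydroxynonenal, rose from 4.31 ± 0.459 to 8.77 ± 0.505 FPKM (SD, n = 3, log2 fold change 1.01), GSTM4 with a log2 fold change of 0.89, MGST3 of 0.44 and GSTM3 of 0.32. With libraries centred on the median log2 ratio, 6 genes of the glutathione list rose, against 8 as reported. The calls lost were those of the transferases that rose and are not named here. GSTM genes are near-identical to each other in parts, so the split of their reads is uncertain. GGCT, which acts on the products of glutathione breakdown, rose with 0.63, and GPX4, the peroxidase of membrane lipids, went from 204.9 ± 7.09 to 235.7 ± 7.04 FPKM (SD, n = 3, log2 fold change 0.20). Under the filter, GSTA1 had 0 to 1 reads per Hep3B-Con library and 9 to 17 per Hep3B-KD library.

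The thioredoxin, peroxiredoxin, superoxide and peroxide list held 0 genes that rose, or 1, PRDX5, under quantile normalization (log2 fold change 0.18). Of 14, all tested, 10 fell and 4 did not pass, and the median log2 fold change was -0.23. TXNIP, an inhibitor of thioredoxin, fell from 5.53 ± 0.260 to 2.71 ± 0.116 FPKM (SD, n = 3), TXNRD2, the mitochondrial thioredoxin reductase, with a log2 fold change of -0.62, and TXN, thioredoxin, with -0.39. The peroxiredoxins that fell were PRDX4 (-0.39), PRDX2 (-0.33), PRDX6 (-0.29), PRDX1 (-0.18) and PRDX3 (-0.16). Catalase, CAT, fell with -0.27, and mitochondrial thioredoxin, TXN2, with -0.17. The calls of PRDX1, PRDX3 and TXN2 were lost under quantile normalization.

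Cysteine limits glutathione synthesis, and the genes of its import fell. Of 4 genes, 3 fell and 1 did not pass, with a median log2 fold change of -0.74. SLC3A2 went from 72.4 ± 1.72 to 29.1 ± 0.214 FPKM (SD, n = 3, log2 fold change -1.31) and SLC7A11, its partner in the cystine importer, from 4.12 ± 0.146 to 1.83 ± 0.0446 FPKM (SD, n = 3, log2 fold change -1.13). CBS, which makes cystathionine from homocysteine, had a log2 fold change of -0.34.

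Since GPX2 and TXNRD1 are selenoproteins, the genes that insert selenocysteine were read beside them. Of 7, all tested, 5 rose, 1 fell and 1 did not pass, with a median log2 fold change of 0.29, and with libraries centred on the median log2 ratio 3 rose. SEPSECS, the enzyme that makes selenocysteine on its tRNA, rose from 4.84 ± 0.151 to 8.25 ± 0.425 FPKM (SD, n = 3, log2 fold change 0.76), PSTK with 0.85 at a low level, SECISBP2 with 0.31 and EEFSEC with 0.29. Of 16 alternatives, EEFSEC lost its call in 1, the centring on the median log2 ratio, SEPHS2 (0.21) in 8 and SEPHS1, the gene that fell (-0.08), in 9, and SEPHS1 turned to 0.03 under quantile normalization. Leaving out Hep3B-Con replicate 2 or 3, or Hep3B-KD replicate 2 or 3, ended the calls of both SEPHS genes, at 0.16 to 0.22 for SEPHS2 and -0.08 to -0.06 for SEPHS1, and leaving out Hep3B-KD replicate 1 that of SEPHS1 (-0.09).

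Over all 6 lists, 76 of 81 genes were tested, 39 fell and 19 rose, and the median log2 fold change was -0.12. Of all genes tested, 23.8% fell and 36.1% rose. With libraries centred on the median log2 ratio, 44 list genes fell and 14 rose, beside 30.3% and 28.6% of all genes. As reported, 7 of the 39 list genes that fell and 1 of the 19 that rose reached a 2-fold change at an adjusted p under 0.05. Past that limit, 2.94% of all genes fell and 5.89% rose. Of the 76, 9 (11.8%) held a seed match of the hairpin, and 10 of the 60 with a promoter in the table held TGACNNNGC (16.7%).

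Among the genes whose log2 values followed those of NFE2L2 most closely over the 6 libraries were CEP85 (Pearson r = 0.9985), ZNF275 (0.9979), MON1A (0.9972) and NSUN6 (0.9969). The 6 points share the split into 2 groups, and 1742 genes (12.3%) had an r of at least 0.95, so that these values are a description of the libraries.

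Libraries held 15861039 to 17572714 reads assigned to genes of the deposited table. DAGLA, the target of the hairpin, went from 9.28 ± 0.228 to 4.62 ± 0.164 FPKM (SD, n = 3 per group), with a log2 fold change of -0.99. All 7 hepatoma markers (AFP, ALB, APOA1, APOB, TF, TTR and HNF4A) were present, and their summed level was 2339 to 2386 FPKM in Hep3B-Con and 3843 to 3858 FPKM in Hep3B-KD, with 6 higher and HNF4A lower. ALB made up most of that sum, with a mean of 2042 FPKM in Hep3B-Con and 3315 FPKM in Hep3B-KD. The 5 markers of fibroblasts, pericytes, leukocytes and endothelium (COL1A1, COL1A2, PDGFRB, PTPRC and PECAM1) summed to 3.67 to 3.96 FPKM in Hep3B-Con and 2.76 to 2.83 FPKM in Hep3B-KD. None was at 0, but PTPRC had only 2 to 6 reads per Hep3B-Con library and 1 to 2 per Hep3B-KD library. PDGFRB made up most of this sum, and PECAM1, the endothelial marker, went the other way, from 0.197 ± 0.00704 to 0.339 ± 0.0626 FPKM (SD, n = 3), without overlap. Both sums moved with the groups, and their part in the results above was not tested.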

How the data were processed

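RNA was sequenced from 3 Hep3B-Con and 3 Hep3B-KD samples, grouped and numbered by the sample titles. The authors deposited FPKM values for 29908 genes; columns of no sample numbered 0. The submitters' processing notes name Bowtie2 2.0.6, TopHat2 2.0.12 and GRCh37, while all identifiers and the exon lengths behind the values were those of GENCODE release 29, an annotation of GRCh38, whose coordinates are printed. With these lengths, 100% of values came out as whole reads within 0.01, so the number of reads assigned to genes is known for each library.

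Genes averaging 0.5 FPKM or more over the 6 libraries were tested with limma 3.58.1 (lmFit, eBayes with trend) in R 4.3.3 on log2(FPKM + 0.1), a scale that understates changes of low genes, with Benjamini-Hochberg adjustment over 14221 genes. On recovered reads, limma's voom called 8975 genes, against 8521. Replicates differed by more than sampling noise (chi-square per gene 1.80 to 3.30).

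The members and lists were chosen with earlier results of these data known. The 9 members, any list gene beside its list's counts, the 5 genes most like NFE2L2 and DAGLA could be named, and 2 genes that this rule takes are not reported here by name. Sequences came from RefSeq promoters, GENCODE transcripts and the study's hairpin. Alternatives covered filter, pseudocount, scaling, variance trend, voom, a replicate block and each library left out. Python 3.11.15 and matplotlib 3.10.9 handled tables and figures.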

Additional observations from a re-analysis of the deposited data

How the results depend on the processing

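Over 16 alternatives, 126 of 128 member values kept their direction and their side of the threshold. Both exceptions were KEAP1, at -0.17 (passed) with libraries centred on the median log2 ratio, and at 0.0481 under quantile normalization. The members that fell then numbered 7 under the centring and 6 in all other alternatives, and 1 rose throughout. Members past a 2-fold change numbered 2 under the centring and 2 under quantile normalization, and 1 to 2 when single libraries were left out (2 without Hep3B-KD replicate 2), NQO1 being the second. Over all lists, 14 to 22 genes rose and 34 to 44 fell. The other reversals were NFE2L1 at -0.0736 (passed) under the centring and SEPHS1 at 0.0283 under quantile normalization. FTH1 also reversed, at -0.0764 without Hep3B-Con replicate 2 and -0.3765 without Hep3B-KD replicate 2, in a range up to 2.0883 without Hep3B-Con replicate 1. NFE2L1 also passed under quantile normalization, at 0.1579. PRDX5, which did not pass, turned to 0.0253 when rescaled to TPM and to 0.1801 (passed) under quantile normalization, and ran from -0.0309 to 0.0381 without single libraries. The cause was not tested. The replicate numbers showed no sign of pairing the samples (correlations of deviations -0.013, -0.066 and -0.001). These values cannot show that samples of the same number were handled apart. With a replicate block, 7919 genes passed, 6 members fell and 1 rose. With 3 libraries per group, exact tests cannot go below p = 0.1, and SRXN1, with at most 1 read per library, allowed no comparison.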

Other observations

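FTH1, the gene of the ferritin heavy chain and an NRF2 target, did not pass because its libraries within a group lay far apart. It was at 160.3, 7.88 and 10.6 FPKM in Hep3B-Con and at 10.2, 178.9 and 32.9 FPKM in Hep3B-KD, high in Hep3B-Con replicate 1 and in Hep3B-KD replicate 2. On the log2 scale its SD within groups was 2.23, the widest among the 7052 genes averaging 5 FPKM or more. FTL, the gene of the ferritin light chain, varied little, at 5138 to 5194 FPKM in Hep3B-Con and 4262 to 4315 FPKM in Hep3B-KD. SQSTM1, whose product p62 draws KEAP1 into autophagy, was also highest in these same libraries, at 68.7, 46.3 and 49.4 FPKM in Hep3B-Con and 49.7, 69.3 and 60.1 FPKM in Hep3B-KD, and did not pass. PRELID1, FADD and MRPL41, named after their values were seen, were likewise highest in these libraries, PRELID1 at 33.5 FPKM in Hep3B-Con replicate 1 against 11.8 and 13.4 FPKM in the other Hep3B-Con libraries. FTH1 has many processed pseudogenes, so how its reads were assigned is uncertain. The tested members did not share this spread: their SD within groups ran from 0.027 for GSR to 0.13 for NQO1, with a median of 0.088 over all genes tested.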
